A study of Drosophila melanogaster with 6 samples.

Results

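IgG peaks without a CAP-D3 peak are regions that the control antibody recovered above input chromatin and that no peak of the CAP-D3 list overlaps. They were chosen by position from the 2 deposited peak lists: every row of the IgG list on 2L, 2R, 3L, 3R, 4 or X whose interval shares no base with any row of the CAP-D3 list. By this rule 811 of the 3899 IgG peaks on the 6 chromosomes were taken, or 20.8% (95% Wilson interval 19.6 to 22.1%), and the other 3088 overlapped a CAP-D3 peak. The share depends on what counts as an overlapping peak: it was 59.7% when CAP-D3 scores had to reach 10, 41.2% with that score in both lists and 12.6% when a CAP-D3 peak within 1000 bp counted. In the whole list, which held 3915 IgG peaks, another 16 lay on other sequences and were not members.

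The authors performed ChIP-seq in S2R+ cells, as the labels name them, an adherent isolate of the embryo-derived Drosophila S2 line, whereas the paper names S2-DRSC cells. The labels list 2 samples of IgG ChIP (normal rabbit IgG), 2 of CAP-D3 ChIP and 2 of input, and give Oregon R as the strain in all 6. No treatment or mutation distinguishes the groups, and chromatin was digested with micrococcal nuclease in all of them. The labels give 10 units of the nuclease. The paper gives a larger amount, and it describes more ChIP experiments per antibody than the labels list. Each antibody has 1 peak list, so no value per experiment could be compared, the error between experiments is unknown, and the lists give no read counts or depth.

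CAP-D3 is a subunit of Condensin II, which with the SMC2 and SMC4 ATPases folds and compacts chromosomes. In ChIP-seq, the DNA that an antibody recovers is sequenced, and a peak is a stretch with more fragments than a control. Normal IgG recognizes no particular chromatin protein, so an IgG peak reports DNA that is recovered without a specific antibody, and such peaks are used to mark regions where a peak of another antibody is not specific. A region with an IgG peak and no peak of the specific antibody is the opposite case, a peak called for the control alone. A missing call does not show that the specific antibody failed to recover that DNA. The score given below for a peak is −log10 of the p-value or q-value that MACS assigned to it against input (which of these is not known), and its lowest value in both lists was 2.

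The IgG scores were alike in both classes. Scores of the 811 peaks without a CAP-D3 peak ran from 2 to 21.64 with a median of 6.90, and scores of the 3088 peaks with one ran from 2 to 46.57 with a median of 6.86. The quartiles were 5.145 and 9.475 for peaks without a CAP-D3 peak, against 5.02 and 9.14 for peaks with one. A score of at least 10 was reached by 172 peaks without a CAP-D3 peak (21.2%) and by 600 with one (19.4%). Both classes came from the same call against input, so these values are a description and were not tested.

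Read by score, the share of IgG peaks without a CAP-D3 peak was 22.2% among the 167 peaks with a score from 2 to below 3 and 23.2% among the 616 peaks from 10 to below 15. Among the 330 peaks from 3 to below 4 it was 16.4% (95% Wilson interval 12.8 to 20.7%), the lowest of the bins below a score of 20. A score of at least 20 was reached by 26 IgG peaks on the 6 chromosomes, and 1 of them, or 3.85% (95% Wilson interval 0.682 to 18.9%), had no CAP-D3 peak. Peaks without a CAP-D3 peak were therefore not only the weak end of the IgG list.

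Length, in contrast, differed between the classes. Peaks without a CAP-D3 peak had a median length of 278 bp and reached 678 bp, and peaks with one had a median of 290 bp and reached 1281 bp. The shortest measured 250 bp in both classes, which is also the library fragment size in the labels. Many lay near this floor: 27.6% of peaks without a CAP-D3 peak and 18.9% of those with one were below 260 bp. The share without a CAP-D3 peak was 27.7% for lengths from 250 to below 260 bp and 8.57% at 500 bp or more. Among the 531 IgG peaks of 400 bp or more it was 9.98%, against 22.5% of 3368 shorter ones, a difference of -12.5 percentage points (95% Newcombe interval -15.2 to -9.36). A longer interval has more bases that an overlap can fall on, and length is part of the rule, so this difference describes the members and is no independent result.

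**Figure D1:**
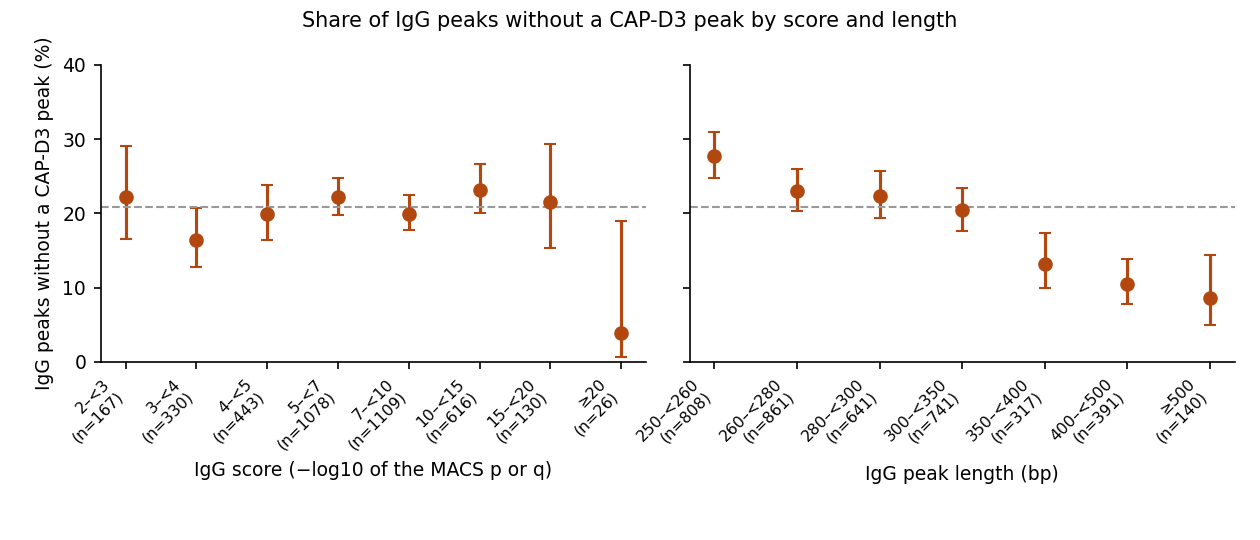
Percent of IgG peaks that overlap no CAP-D3 peak (vertical axis), by IgG score on the left and by IgG peak length in bp on the right. Points are shares with 95% Wilson intervals and the dashed line is the share over all 3899 peaks, 20.8%. The share lies between 16.4 and 23.2% for scores below 20 and falls to 8.57% for the longest peaks.

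Near the limit of the rule, 30 members (3.70%) lay within 100 bp of a CAP-D3 peak and 166 (20.5%) within 500 bp. The member closest to a CAP-D3 peak lay on 3R from 3028999 to 3029314, in Pzl (a gene of the Piezo family of mechanosensitive channels), 38 bp from a CAP-D3 peak with a score of 3.50. The next were a peak in GluClalpha, a glutamate-gated chloride channel gene, at a gap of 49 bp, and a peak in jeb, the gene of a secreted ligand of the receptor Alk, at 52 bp. On the other side of the limit, the smallest overlap was 2 bp, for an IgG peak on 2R from 1026872 to 1027182, followed by 10 bp in CG5111 and 19 bp for a peak outside genes on 3R. Most overlaps were far from this limit, since 2444 of the 3088 overlapping IgG peaks (79.1%) shared at least 90% of their length with CAP-D3 peaks, and 70 (2.27%) shared under 50%.

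Peaks without a CAP-D3 peak usually had one in the neighborhood. The median gap was 1417 bp, with quartiles of 596 and 3411 bp. A CAP-D3 peak lay within 200 bp of 60 members (7.40%), within 1000 bp of 320 (39.5%) and within 10000 bp of 766 (94.5%). The CAP-D3 list is dense, with 22059 peaks on the 6 chromosomes. Gaps from random positions were not computed, so this nearness has no base beside it and is no trait of the members. The nearest CAP-D3 peak had a median score of 9.44 and reached 10 in 373 cases (46.0%). All CAP-D3 peaks on the 6 chromosomes had a median score of 9.16. The CAP-D3 peaks that did overlap an IgG peak had a median score of 10.05.

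Other CAP-D3 peaks were slightly sparser around the members. Within 10000 bp, a median of 4 other CAP-D3 peaks surrounded an IgG peak without a CAP-D3 peak, against 5 around an IgG peak with one. No other CAP-D3 peak lay within that distance of 46 peaks without a CAP-D3 peak (5.67%) and of 99 peaks with one (3.21%). The median number of other IgG peaks within the same distance was 1 in both classes. These counts come from the lists that the rule used and were not tested.

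**Figure D2:**
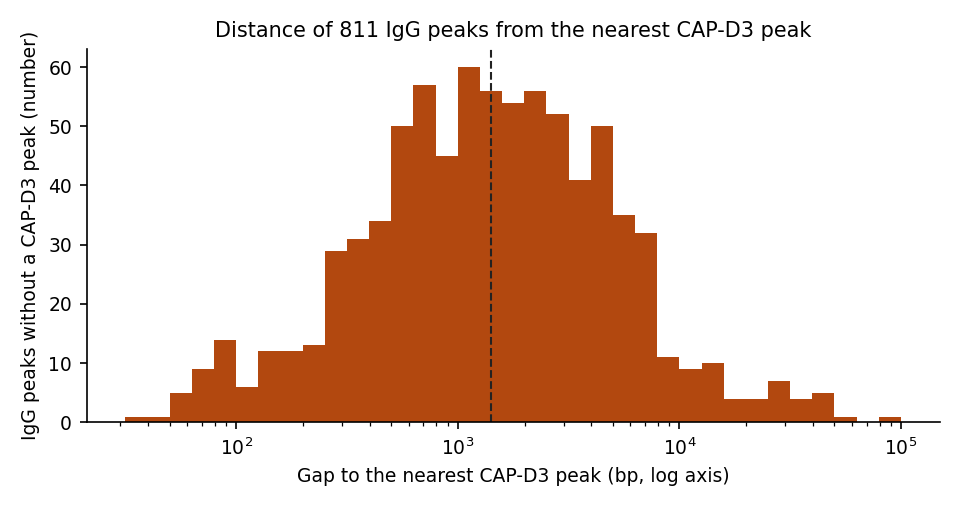
Number of IgG peaks without a CAP-D3 peak (vertical axis) by their gap to the nearest CAP-D3 peak in bp (log axis). The dashed line is the median of 1417 bp. Gaps run from 38 to 93717 bp, and 320 of 811 are at most 1000 bp.

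The most isolated members lay on X and toward the centromeres. CAP-D3 peaks themselves were sparse on X, with 1021 on 23.5 Mb, against 4088 on 2L, which has the same length. The longest gap was 93717 bp, for a peak on X from 13904302 to 13904558 in mamo, which encodes a zinc finger transcription factor, with a score of 6.36. It was followed by a gap of 50704 bp in lovit on 3L, one of 49395 bp on 2L from 23241612 to 23241871 outside genes, one of 45793 bp in Myo81F on 3R, and one of 44878 bp on X from 23152100 to 23152354. The peak on 2L had a score of 14.93 and that at the end of X a score of 16.11, so isolation from CAP-D3 peaks occurred at high IgG scores too.

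Among the members, the peak with the highest score lay on 2L from 3683391 to 3683650, within Drgx, which encodes a paired-type homeodomain protein of neurons. Its score was 21.64, it was 260 bp long, and the only CAP-D3 peak within 10000 bp lay 1540 bp away with a score of 6.79. The second lay on 2L from 9935261 to 9935510 in Arglu1, whose human ortholog acts in transcription and splicing, with a score of 19.99 and 5 CAP-D3 peaks within 10000 bp. Both IgG scores exceeded that of the nearest CAP-D3 peak, which was 8.62 at Arglu1, although scores of the 2 lists depend on the depth of each library and are set side by side only as values.

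Another 5 of the 10 highest-scoring members lay within genes. The peak in flap on 2R had a score of 19.62 and 8 CAP-D3 peaks within 10000 bp. In Ets65A on 3L, which encodes an ETS-domain transcription factor, a peak from 6120015 to 6120287 had a score of 18.97 and was accompanied by a second member with a score of 7.44. In mAChR-B on 3R, a muscarinic acetylcholine receptor gene, a peak from 8069638 to 8069897 had a score of 18.56 and a second member one of 11.74, with the nearest CAP-D3 peak 8335 bp from the first. Neither Ets65A nor mAChR-B had an IgG peak with a CAP-D3 peak.

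The peaks in Fatp2, a fatty acid transport protein gene, and in Su(z)2, a Polycomb group gene, both on 2R, had scores of 17.65 and 17.55. The Fatp2 peak was the closest of the 10 to a CAP-D3 peak, at 199 bp, and that CAP-D3 peak had a score of 14.92. The remaining 3 of the 10 lay outside genes, on 3R from 5728060 to 5728352 (score 18.70), on 2R from 741960 to 742282 (18.35) and on 3R from 28135153 to 28135409 (18.28). The one on 2R lay 36272 bp from the nearest gene end, that of DIP-lambda, and had 2 further members within 10000 bp.

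The 5 highest-scoring IgG peaks that did overlap a CAP-D3 peak had scores from 24.87 to 46.57. They lay near the start of X, 52284 bp from the nearest gene end (that of the Stellate copy SteXh:CG42398), and in Pzl, Ggamma30A (a G protein gamma subunit), Rbfox1 (an RNA-binding splicing regulator) and PH4alphaEFB (a prolyl 4-hydroxylase subunit). Their CAP-D3 peaks had scores of 21.05 to 75.77 and covered at least 250 bp of each. The strongest IgG peaks were thus found in the CAP-D3 list, and the strongest member ranked below all 5.

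**Figure D3:**
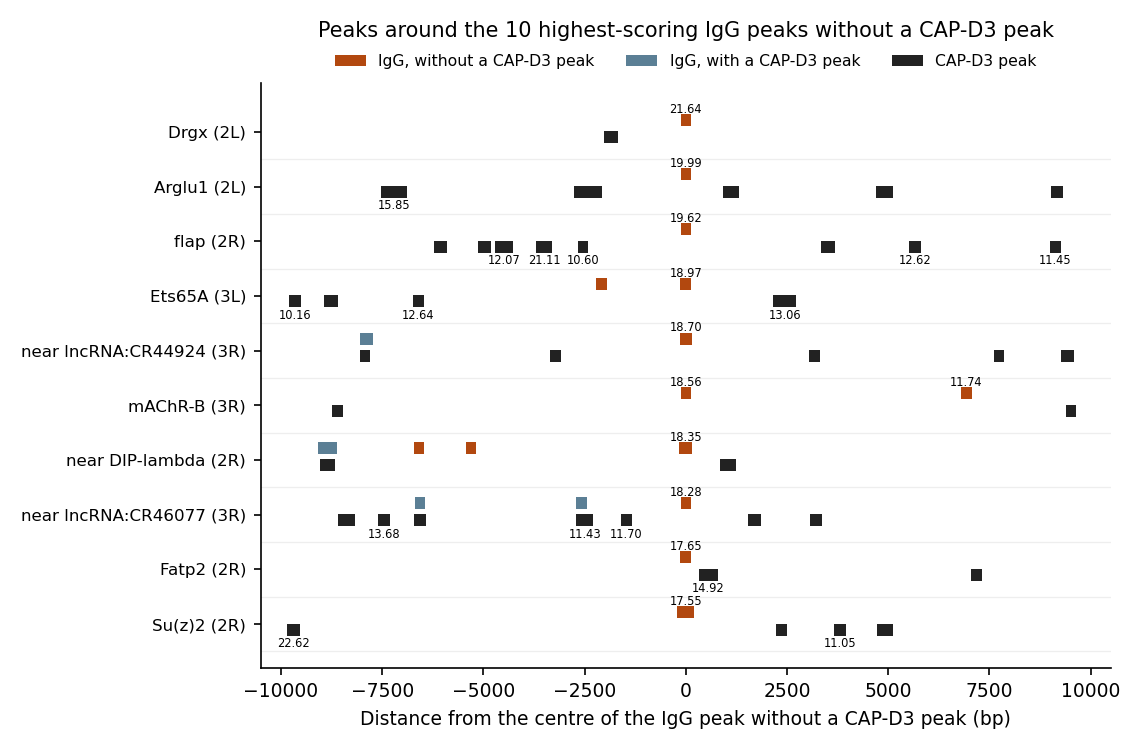
IgG peaks and CAP-D3 peaks within 10000 bp of the 10 highest-scoring IgG peaks without a CAP-D3 peak, 1 per line, by distance from the centre of that peak in bp. Boxes mark peak extents (very short boxes are drawn slightly wider), and numbers are scores of at least 10. No CAP-D3 peak lies under the centre in any line, and each line has at least 1 CAP-D3 peak, 8 of them at flap and 1 at Drgx.

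The share of IgG peaks without a CAP-D3 peak was close to the same on the large arms. It was 19.2% of 740 peaks on 2L, 21.9% of 880 on 2R, 20.6% of 916 on 3L and 21.3% of 1284 on 3R, with overlapping 95% Wilson intervals. On X, 13 of 75 IgG peaks had no CAP-D3 peak, or 17.3% (10.4 to 27.4%), against 798 of 3820 on the 4 arms, a difference of -3.56 percentage points with a 95% Newcombe interval of -10.6 to 6.62, so no difference was shown. Chromosome 4 had 4 IgG peaks, and all of them overlapped a CAP-D3 peak. Members were rare on X in number, at 0.552 per Mb, against 6.04 to 8.54 per Mb on the large arms, and IgG peaks with a CAP-D3 peak were rare there too (2.63 per Mb, against 25.4 to 31.5).

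Of the 13 members on X, 2 lay in eag, which encodes a voltage-gated potassium channel, with scores of 13.16 and 11.36. The first of these lay 99 bp from a CAP-D3 peak. Others lay in mamo, Pde9 and RunxB, and 1 lay in the window at the end of CG5334.

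Position along the arms was compared after the values had been seen. In the 2 Mb at the centromere-proximal end of each arm, 45 of 151 IgG peaks had no CAP-D3 peak (29.8%), against 766 of 3744 on the rest of the 5 arms (20.5%), a difference of 9.34 percentage points (95% Newcombe interval 2.49 to 17.2). At 20 Mb or more from that end the share was 18.0%. For peaks within genes alone the proximal difference was 5.60 points, with an interval of -3.06 to 16.9 that holds 0. The rule takes peaks where no CAP-D3 peak lies, so the share can follow the density of CAP-D3 peaks. That density was not counted for the proximal 2 Mb, so these differences describe the members only. All intervals given here assume independent peaks and reflect counting error alone.

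Relative to genes, peaks without a CAP-D3 peak lay more often outside genes. Midpoints were assigned to windows at both ends of each gene, from 1000 bp outside to 100 bp inside, then to the rest of the gene spans, then to neither, with the Release 6 plus ISO1 MT annotation used without strand or exons. Exons and introns were not told apart. Neither class fell mainly at gene ends: the windows held 120 of 811 peaks without a CAP-D3 peak (14.8%) and 487 of 3088 with one (15.8%), a difference of -0.974 percentage points (95% Newcombe interval -3.61 to 1.92). The rest of the gene spans held 58.3% of peaks without a CAP-D3 peak and 65.6% of those with one, a difference of -7.29 points (-11.1 to -3.54). Outside both lay 218 peaks without a CAP-D3 peak (26.9%) and 575 with one (18.6%), a difference of 8.26 points (5.0 to 11.7).

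Seen from the genome, 264 of 989 IgG peaks with a midpoint in no gene had no CAP-D3 peak (26.7%), against 547 of 2910 within a gene (18.8%). Other CAP-D3 peaks were also sparser outside genes and windows, with medians of 3.5 within 10000 bp of a peak without a CAP-D3 peak and 4 for a peak with one, against 5 and 6 within genes away from the windows. With only the IgG peaks that had 3 or more other CAP-D3 peaks within 10000 bp, the difference for the rest of gene spans was -6.97 points (95% Newcombe interval -11.4 to -2.66). With only the shortest IgG peaks, of at most 260 bp, it was -8.32 points (-15.7 to -1.02), and with IgG scores below 5 it was -6.65 points with an interval of -14.7 to 1.12 that holds 0. Of all 22059 CAP-D3 peaks on the 6 chromosomes, 63.8% lay in the rest of the gene spans and 15.7% outside both.

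**Figure D4:**
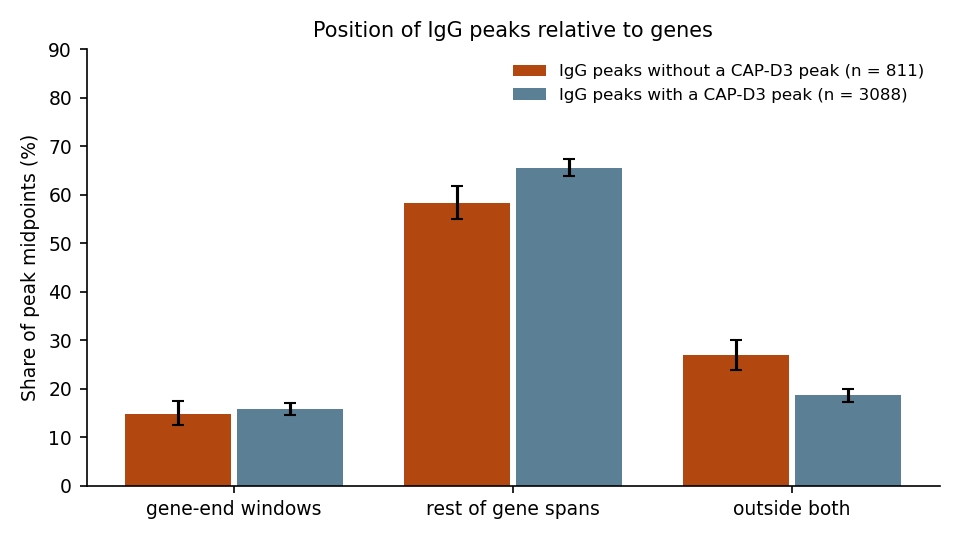
Percent of peak midpoints (vertical axis) in gene-end windows, in the rest of gene spans and outside both, for 811 IgG peaks without and 3088 with a CAP-D3 peak. Bars are shares with 95% Wilson intervals. Gene-end shares are 14.8 and 15.8%, whereas outside both the shares are 26.9 and 18.6%.

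The depth within genes differed as well. At 1000 to below 5000 bp from the nearest gene end inside genes, members were fewer: 78 members (9.62%) and 410 IgG peaks with a CAP-D3 peak (13.3%) lay at 1000 to below 2000 bp, and 104 (12.8%) and 587 (19.0%) at 2000 to below 5000 bp. At 10000 bp or more inside genes the order turned, with 142 peaks without a CAP-D3 peak (17.5%) and 414 with one (13.4%), a difference of 4.10 percentage points (95% Newcombe interval 1.34 to 7.10). Outside genes, members were more frequent in the bins from 2000 bp on, with differences of 2.10 to 2.51 percentage points and intervals that did not hold 0. The 14 distance bins were compared without adjustment for their number.

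The annotation was then read gene by gene. A midpoint of at least 1 IgG peak without a CAP-D3 peak lay in 478 of 17684 annotated genes, or 2.70%, against 10.5% for any IgG peak. Of the 478 genes, 402 held 1 member, 57 held 2 and 19 held 3 or more. An IgG peak with a CAP-D3 peak was also found in 236 of them, and 69 held no CAP-D3 midpoint at all. The share of all annotated genes without a CAP-D3 midpoint was not counted, so the 69 have no base beside them. The 478 genes were long, with a median of 19155 bp, against 1710 bp for all genes and 9111.5 bp for genes that held an IgG peak with a CAP-D3 peak. A long span can hold more midpoints. The medians of the 2 classes count each gene once and come from sets of unlike size, 811 and 3088 IgG peaks. A larger set can reach more short genes, so these medians were not compared.

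Gene length was compared after the values had been seen. Where the longest gene at a midpoint measured 100000 bp or more, 94 of 357 IgG peaks had no CAP-D3 peak (26.3%), against 453 of 2553 in shorter genes (17.7%), a difference of 8.59 percentage points (95% Newcombe interval 4.02 to 13.6). Outside the proximal 5 Mb of each arm the difference was 5.67 points (0.486 to 11.6). The density of CAP-D3 peaks, which the share can follow, was not compared between long and shorter genes. These differences therefore describe the members only.

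The largest numbers stood in very long genes. Myo81F, a myosin heavy chain gene of 1966 kb at the base of 3R, held 9 members and 24 IgG peaks with a CAP-D3 peak, and 79 CAP-D3 peaks. Its members had scores from 2.68 to 12.03, and their gaps to CAP-D3 ran from 300 to 45793 bp. Pzl (709 kb, also on 3R) held 7 members and 9 IgG peaks with a CAP-D3 peak. The highest member score in Pzl was 13.35, while one of its other IgG peaks, with a score of 29.20 and a CAP-D3 peak of 24.72, was among the 5 highest of the shared class. Both classes therefore stood side by side in the same gene.

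Rbp6 on 3L, which encodes an RNA-binding protein related to Musashi, held 6 members with scores from 2.11 to 12.24 and 11 IgG peaks with a CAP-D3 peak. Its members were spread over the region from 17100651 to 17158559, and each had another member within 10000 bp. DIP-lambda on 2R, an immunoglobulin-superfamily receptor gene whose protein family binds Dpr proteins, held 5 members and 9 IgG peaks with a CAP-D3 peak. Its strongest member lay from 551732 to 552010 with a score of 15.56, and the nearest CAP-D3 peak was 6384 bp away.

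Eip75B and Antp held 4 members each and 6 IgG peaks with a CAP-D3 peak each. Eip75B encodes E75, a nuclear receptor induced by ecdysone, and its members on 3L had scores of 14.05, 11.93, 11.40 and 8.48. These were higher than the median of the class, 6.90. Antp, a Hox gene on 3R that specifies thoracic segments, had members with scores of 16.04, 8.01, 7.74 and 7.36, and those with 16.04 and 7.36 also lie in the overlapping gene CG46458. The first of these, from 6916770 to 6917172, lay 345 bp from a CAP-D3 peak with a score of 8.68, and a CAP-D3 peak with a score of 22.24 lay 506 bp from the member with 7.36.

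Another 13 genes held 3 members each. The 9 with the highest summed scores are described, and the other 4 were btv, jing, CG46467 and Glut4EF. CG46467 and Glut4EF overlap: their strongest member (score 7.1) lies in both, and their counts and summed score (18.48) are the same. In AGO3, which encodes an Argonaute protein of the piRNA pathway, and in Mmp2, a matrix metalloproteinase gene, 1 IgG peak with a CAP-D3 peak stood beside the 3 members. In sls, which encodes a titin-like muscle protein, there were 11, and in SKIP, named for its product's interaction with Shal potassium channels, 8. Snap25, a SNARE gene of synaptic vesicle fusion, and klg, an immunoglobulin-superfamily adhesion gene, had 5 each. The other 3 were CG14459 with 6, CG17684 with 3 and lovit, which is needed for visual transmission, with 4. The Snap25 members lay 16362, 16865 and 28191 bp from the nearest CAP-D3 peak, whereas those of SKIP lay 413, 468 and 2718 bp away.

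**Figure D5:**
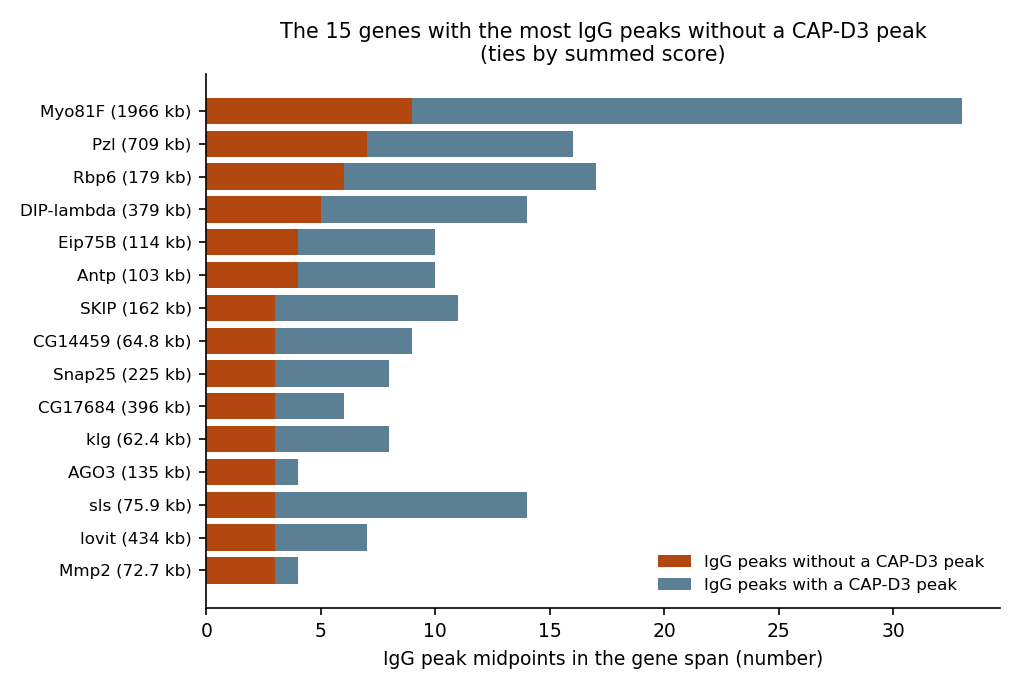
Number of IgG peak midpoints per gene span (horizontal axis) for 15 genes with the most IgG peaks without a CAP-D3 peak, ties ordered by summed score, with gene length in kb. The left part of each bar counts peaks without a CAP-D3 peak, from 9 in Myo81F to 3 in Mmp2, and the right part those with one.

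In 11 of the 57 genes with 2 members, named after their values were seen, no IgG peak overlapped a CAP-D3 peak. Over all 478 genes with a member, 242 held no IgG peak with a CAP-D3 peak. They were mAChR-B and Ets65A, described above, and CG44838, mesh (a septate junction protein of the gut), l(2)41Ab, CG1688, scro (an NK-type homeodomain factor), Dh31-R (a neuropeptide receptor), GluClalpha, Sema2a (a secreted axon guidance cue) and Plc21C (a phospholipase C). In scro and Sema2a the CAP-D3 list had no peak midpoint either, and both are among the 69 genes above that have no base. The scro members, with scores of 7.39 and 4.78, lay 33091 and 39394 bp from the nearest CAP-D3 peak. Those of Sema2a had scores of 5.24 and 4.52 and lay 5076 and 11672 bp away. Plc21C, in contrast, held 12 CAP-D3 peaks and CG1688 held 11. All IgG peaks of these genes were members, so by the rule none of them overlaps a CAP-D3 peak.

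Gene lists were read by their counts, beside 2.70% of all genes with a member. Most genes are short, with 14079 of 17684 below 5000 bp. A member lay in 5.10% of genes from 5000 to below 20000 bp and in 17.2% from 20000 to below 50000 bp. The share was 27.8% from 50000 to below 100000 bp and 48.3% at 100000 bp or more. No list was tested against genes of like length. Of 8 Hox genes, which specify segment identity, 4 held a member, with 8 members against 20 IgG peaks with a CAP-D3 peak. Besides Antp, these were Ubx with scores of 7.66 and 5.89, Abd-B with 4.66 and pb with 6.95. The nearest CAP-D3 peak lay 910 and 1061 bp away in Ubx, 646 bp in Abd-B and 428 bp in pb. Hox genes have a median length of 30563 bp here, far above that of all genes. Their IgG peaks were without a CAP-D3 peak in 28.6%, against 18.8% for all IgG peaks within genes. In long genes the share was 19.9% from 20000 to below 50000 bp, 20.6% from there to below 100000 bp and 26.6% above. Antp, of 103 kb, held 4 of the 8 Hox members. The difference for so few peaks was not tested.

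Of 46 genes of the Dpr, DIP and Beat families, which encode cell-surface adhesion proteins of neurons, 8 held a member (17.4%), with 14 members and 50 IgG peaks with a CAP-D3 peak. After DIP-lambda came beat-IIIc, with scores of 12.61 and 12.25, beat-VI, with 7.80 and 6.81, and dpr21 with 1 member. Of 12 axon guidance genes, robo3 held 2 members (scores 7.63 and 5.52) and Dscam4 held 1 (10.92), while the Slit receptor gene robo2 held none and 3 IgG peaks with a CAP-D3 peak. Shares without a CAP-D3 peak in these lists were 21.9 and 16.7%. Both lists consist of long genes, with medians of 33176.5 and 40274 bp.

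Of 18 genes that the study names for the wing, for EGFR signaling or beside them, 3 held 1 member each, and the list had 27 IgG peaks with a CAP-D3 peak. The 18 genes had a median length of 18522.5 bp. The member in knot (kn), the gene of the COE-family transcription factor KNOT, lay on 2R from 14788478 to 14788727 with a score of 7.14. It was the only IgG peak in knot, and the nearest of the 5 CAP-D3 peaks in the gene lay 3468 bp away. In dpp, which encodes a BMP ligand, the member had a score of 14.08, lay 4105 bp from CAP-D3 and stood beside 3 IgG peaks with a CAP-D3 peak. In sca, which encodes a secreted fibrinogen-related protein, it had a score of 9.57 and lay 1019 bp from CAP-D3. None of the 12 IgG peaks of sns, a nephrin-family gene, or the 4 of px was without a CAP-D3 peak, and the same held for Egfr (2) and hh (3).

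Of 15 hemocyte genes, chosen because S2 cells resemble hemocytes, 2 held a member (13.3%). The 15 genes had a median length of 7671 bp, and 5.10% of all genes from 5000 to below 20000 bp held a member. So few genes show no difference. Hml, which encodes hemolectin, had 1 with a score of 6.88 that lay 141 bp from a CAP-D3 peak, and Ppn, which encodes the matrix protein papilin, had 1 with 8.35. The basement membrane collagen gene Col4a1 held 4 IgG peaks, all with a CAP-D3 peak. Among 12 housekeeping genes of high expression, eEF1alpha1, a translation elongation factor gene, held 1 member with a score of 4.55. This was 8.33% of a list with a median length of 4089 bp, against 0.824% of all genes below 5000 bp. A single gene shows no difference.

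The other lists held no member. No IgG peak of either class had its midpoint in any of 86 cytoplasmic ribosomal protein genes, 295 tRNA genes, 111 histone genes or 25 heat shock genes. Of 289 snRNA and snoRNA genes, 1 (snoRNA:Or-CD16) held an IgG peak, and it had a CAP-D3 peak. Of 11 Condensin and cohesin genes found in the annotation, Nipped-B, the cohesin loader gene, held 1, also with a CAP-D3 peak. The median length was 73 bp for tRNA genes, 1344.5 bp for ribosomal protein genes, 2347 bp for heat shock genes and 4772 bp for Condensin and cohesin genes. The median was 135 bp for snRNA and snoRNA genes, 529 bp for histone genes and 1710 bp for all genes. Among all genes shorter than 5000 bp, 0.824% held a member. At that share few members would fall in any of these lists, so their lack of members shows no difference.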

How the data were processed

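The authors called peaks in IgG ChIP and in CAP-D3 ChIP against input and deposited 1 list per antibody, with sequence, start, end, name and a score on a −log10 scale. Whether it was made from p-values or q-values, the settings, and whether experiments were pooled are not given in the sources used here. The paper states a P for its CAP-D3 sites and counts fewer sites than the 22108 rows of the CAP-D3 list. Whether the score is on the scale of that P is not known. Every deposited row, down to a score of 2, was counted here, and a CAP-D3 score of at least 10 was one alternative. The submitters' processing notes name CASAVA 1.4, Trim Galore 0.3.7, cutadapt 1.8, FastQC 0.11.3, Bowtie 1.0.0 and MACS2 2.0.9. The build is not named, but the scaffold names in the lists are those of Release 6. Scores follow depth, which is unknown.

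Starts were converted to count from 1. Overlap meant 1 bp or more. Gene spans came from RefSeq's Release 6 plus ISO1 MT table, whose coordinates are not printed, and arms were taken to extend to their last gene or peak. Of the listed gene symbols, 1 (SA) was not found. The members and lists were chosen with earlier results of these data known. Shares have 95% Wilson intervals and differences Newcombe intervals. Overlaps, gene classes and Newcombe intervals were tested on simulated data. Peaks are not replicates, so these intervals compare sets of peaks in 1 pair of lists.

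Named genes were those at the 10 highest-scoring members and the 5 highest-scoring IgG peaks with a CAP-D3 peak, the 15 with the most members (ties by summed score), up to 4 per list, and those at the 3 peaks on each side of the limit. Sequence and G+C content were not analysed here, so the planned sequence comparisons were not run. Python 3.11.15, numpy 2.4.6, pandas 2.3.3 and matplotlib 3.10.9 were used.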

Additional observations from a re-analysis of the deposited data

How the results depend on the processing

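The share of IgG peaks without a CAP-D3 peak, 20.8%, followed the definition of overlap. It was 22.3% for IgG scores of at least 10, 59.7% when CAP-D3 scores had to reach 10, 41.2% with that score in both lists, 22.6% when 50% of the IgG peak had to be covered, 19.3 and 12.6% when a CAP-D3 peak within 200 or 1000 bp counted, and 27.7% for the shortest IgG peaks. With every sequence of the list it was 20.8%. The gene-end difference of -0.974 percentage points was reversed to 0.398 when CAP-D3 scores had to reach 10, and no setting gave an interval without 0. The difference in the rest of the gene spans, -7.29 points, lay between -8.45 and -4.95 in all 8 alternatives and lost its call only for IgG scores below 5 (-6.65). The cause was not tested, and 179 and 761 peaks were left there. The difference on X, -3.56 points, was reversed to 1.78 for IgG scores below 5, to 5.78 for the shortest IgG peaks and to 3.03 with CAP-D3 scores of at least 10, each with an interval that holds 0. Genes with a member numbered 478, and 488 or 606 with wider assignment. Restricting the arms to positions outside the proximal 5 Mb and requiring 3 or more other CAP-D3 peaks nearby were chosen after seeing the data.

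No paired analysis was possible because the peak lists carry no values of single experiments, which also means that leaving out a replicate was not run. The G+C alternatives were not run. The depth of the libraries is unknown and limits what the absence of a CAP-D3 peak shows.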
